A study of Mus musculus with 14 samples.

Results

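Ribosome biogenesis and nucleolar genes encode the factors that transcribe, cut, modify and assemble ribosomal RNA. A list of 40 such genes was followed in bone marrow cells of young and old mice, cancer-free or tumour-bearing. The list was drawn up by pathway with earlier results of the same arrays known, in which Nop16 had stood out between old and young tumour-bearing mice. Each gene was read from a probe annotated to that gene alone and, where there were several, from the one that was brightest on average over all arrays. This gave 37 of the 40 genes, out of 22180 genes with such a probe. Fbl, Npm3 and Tsr1 were not matched to such a probe and were not analysed here. All 37 passed the filter on dim genes, a value above 3.88 (the median of the whole table, log2 scale) on at least 3 arrays, as did 13805 genes in all. All but Polr1b passed it on all 14 arrays. Polr1b passed on 6.

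The cells were bone marrow cells sorted as positive for Sca1 and negative for cKit from female NCR-NU mice, a nude strain that lacks a thymus. Young cancer-free mice (n = 3) and old cancer-free mice (n = 5) carried a Matrigel plug as control, and young tumour-bearing mice (n = 3) and old tumour-bearing mice (n = 3) carried primary tumours that were matched in size. Each mouse gave 1 array, hybridised with amplified total RNA. The ages in weeks and the kind of tumour are not given in the sources used here. Over all probes the median log2 value of an array was 3.81 to 3.93, and each array's mean correlation with the others lay between 0.899, for young tumour-bearing replicate 1, and 0.942. The small number of arrays, 3 to 5 a group, limits the precision. Ptprc (CD45), the pan-leukocyte marker, lay at 10.57 to 10.99 as group means. Kit, the receptor absent from the surface of the sorted cells, lay at 5.50 to 6.62, above the dim floor, while Sca1's own gene, Ly6a, is not analysed here. Defining markers of several blood cell types were above the floor on all 14 arrays, with means of 10.24 for Cd3e of T cells, 8.76 for Ncr1 of natural killer cells and 8.13 for Siglech of plasmacytoid dendritic cells. These are single markers. As group means, the marker lists of the same cell types lay at 6.72 to 7.58, 8.01 to 8.96 and 6.36 to 7.64. In bulk samples, fewer cells of a type and less RNA per cell cannot be told apart.

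Ribosomes are built in the nucleolus, where RNA polymerase I makes 1 long precursor of the ribosomal RNAs. Small nucleolar ribonucleoproteins (snoRNPs) of the box C/D and box H/ACA classes guide methylation and pseudouridylation of the precursor, the small subunit processome cuts out the RNA of the small subunit, and further assembly factors mature the large subunit. The pathway is known as a target of the growth regulator Myc and is usually most active in growing and dividing cells.

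The nucleolar genes as a group differed little between the 4 groups of mice. The mean log2 level over the 37 genes was 6.68 ± 0.08 (SD, n = 3; arrays from 6.58 to 6.73) in young cancer-free mice. With tumour it was 6.51 ± 0.05 (SD, n = 3; 6.47 to 6.56) in the young. Among old mice it was 6.61 ± 0.10 (SD, n = 5; 6.49 to 6.71) without and 6.43 ± 0.13 (SD, n = 3; 6.29 to 6.52) with tumour. Thus the young cancer-free and young tumour-bearing arrays did not overlap, while the old arrays did. Individual genes varied within groups about as much as other genes did: the within-group SD was 0.36 in the median over the 37 genes (0.18 for Npm1 to 0.75 for Brix1) and 0.34 over all genes tested.

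**Figure D1:**
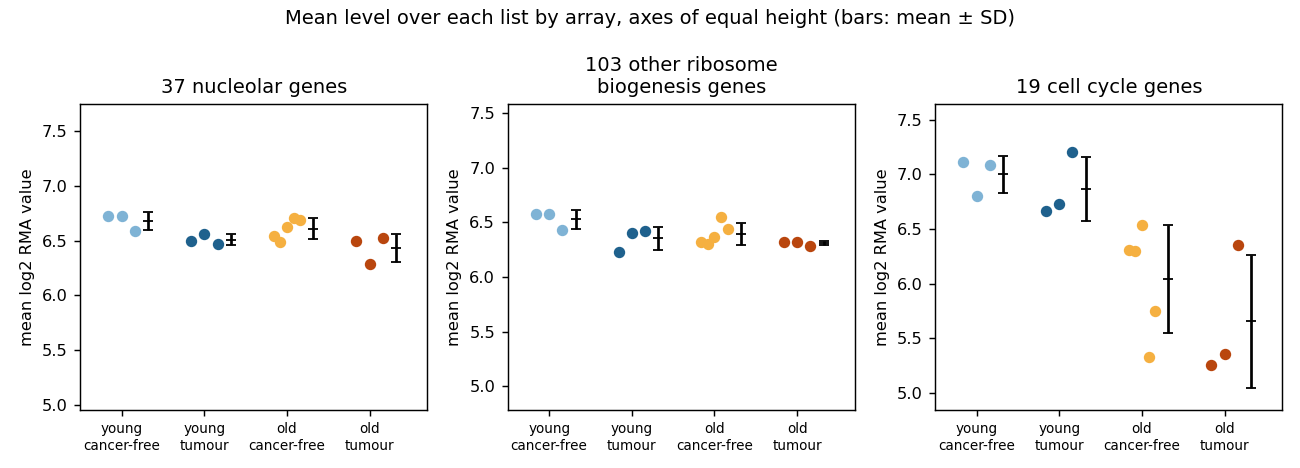
Mean log2 RMA value over each of 3 gene lists on every array, by group, with the group mean ± SD (n = 3, 3, 5 and 3). The nucleolar genes stay between 6.29 and 6.73 on all arrays, while the 19 cell cycle genes on axes of the same height range from 5.26 to 7.20.

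Differences between groups were fitted in limma over all 13805 genes, and p-values were adjusted over all of them. A gene was called at an adjusted p under 0.05. Of the 37 nucleolar genes, 0 were called in any of the 7 comparisons. Nop16 is counted with the others. Since it had been noticed in old against young tumour-bearing mice, nothing is read from its being called or counted there. The same holds for the age average and the interaction, which contain that comparison. The whole list was drawn up with earlier results of these arrays known, so shares above those of all genes may reflect that choice. Between tumour-bearing and cancer-free mice, limma called 0 nucleolar genes (0% of all genes) in the young and 0 (0%) in the old. At unadjusted p under 0.05 there was 1 nucleolar gene in the young, Polr1b, which lay near the dim floor. The share over all genes was 5.4%, with 0 nucleolar genes higher (2.1% of all genes) and 1 lower (3.3%). At the same p there were 6 nucleolar genes in the old, 16.2% of the 37, where the share over all genes was 9.76%. Of these, 2 were higher (4.2% of all genes) and 4 lower (5.56%). Between old and young mice, limma called 0 (0% of all genes) among cancer-free and 0 (0%) among tumour-bearing mice. At unadjusted p under 0.05 there were 6 in cancer-free mice, again 16.2% (7.66% of all genes), with 2 higher (2.48%) and 4 lower (5.17%). In tumour-bearing mice there were 3, or 8.11% (10.1% of all genes), with 1 higher (3.75%) and 2 lower (6.35%). The interaction (the tumour difference of old mice minus that of young mice) had 0 called (0% of all genes) and 4 at unadjusted p under 0.05 (4.42% of all genes), 2 higher (2.57%) and 2 lower (1.85%). Averaged over ages, the tumour comparison had 0 called (0% of all genes) and 3 at unadjusted p under 0.05 (10.2% of all genes), 0 higher (4.23%) and 3 lower (6.01%). Averaged over hosts, the age comparison had 0 called, against 0.0869% of all genes, and 5 at unadjusted p under 0.05 (13.4% of all genes), 2 higher (4.44%) and 3 lower (8.97%).

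Most of the nucleolar genes had a lower mean in tumour-bearing mice, by small amounts. In young mice 25 of 37 differences were below 0 (52.8% of all genes) with a median of -0.18, against -0.022 over all genes. In old mice 26 of 37 were below 0 (48.7% of all genes), with a median of -0.18 against 0.011. For old against young mice, the median was -0.091 in cancer-free mice (-0.039 over all genes) and -0.14 in tumour-bearing mice (0.0044 over all genes), with 24 (55.5% of all genes) and 25 (49.5% of all genes) of 37 below 0. For the interaction 20 were below 0 (47.6% of all genes), for tumour averaged over ages 30 (51.1%), and for age averaged over hosts 24 (52%). The comparisons share arrays, so their medians are not separate results. Single arrays moved them: without old tumour-bearing replicate 2 the median was -0.11 for tumour in old mice and -0.058 for age in tumour-bearing mice, and without young cancer-free replicate 3 it was -0.050 for age in cancer-free mice. After cyclic loess scaling of the arrays the median was -0.078 for tumour in young mice, and for age in cancer-free mice it changed sign to 0.0022. The 95% intervals of the single differences had a median half-width of 0.61 for tumour in young mice and 0.54 for tumour in old mice. They lay wholly within 1 on the log2 scale, a 2-fold change, for 25 and 23 of the 37 genes.

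**Figure D2:**
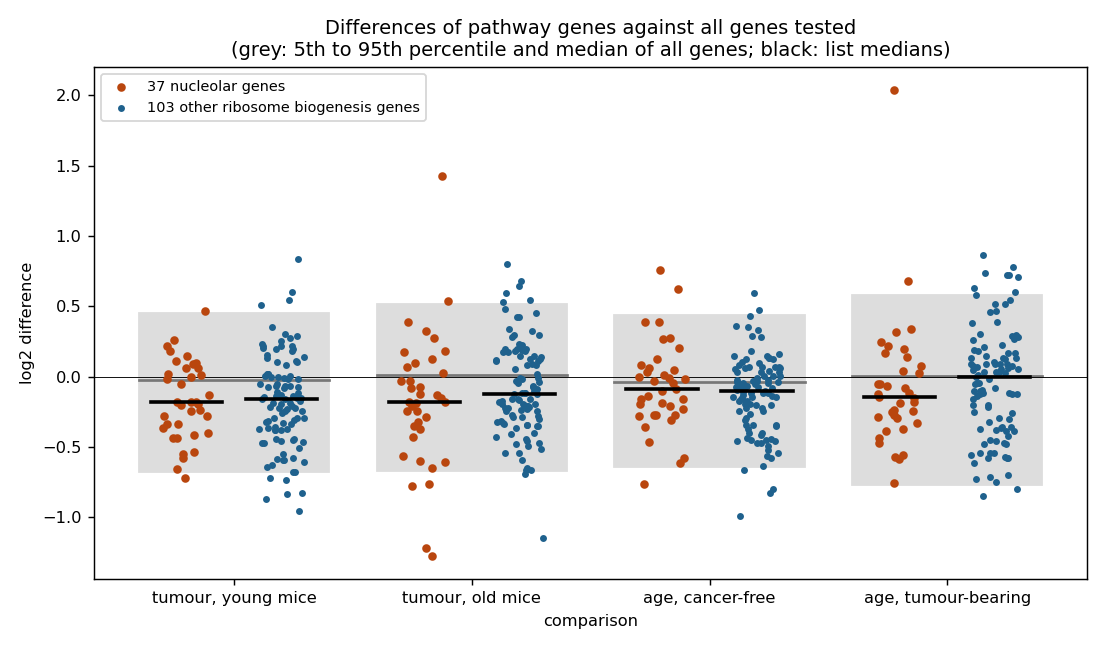
Log2 difference of each of the 37 nucleolar genes and 103 other ribosome biogenesis genes in 4 comparisons, with list medians as black lines. Grey boxes give the 5th to 95th percentile and median of all 13805 genes. The medians of the nucleolar genes lie between -0.18 and -0.091, and Nop16 is the point at 1.42 for tumour in old mice and 2.04 for age in tumour-bearing mice.

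Of the 37 genes, 3 had 1 group of mice apart from all other arrays: Nop16, Trmt2a and Nat10. Over all genes, the young cancer-free arrays lay above all others for 0.608% and below for 0.63%. For young tumour-bearing arrays the shares were 0.304% and 0.254%. In old mice they were 0.116% and 0.0797% without and 0.746% and 1% with tumour. The group and side were not set beforehand, so the share for 1 of them understates how often any group stood apart. The 3 genes were singled out after their values were seen. Nop16 encodes a nucleolar protein of large subunit assembly. Its log2 level was 8.03, 7.84 and 7.18 on the 3 old tumour-bearing arrays, and 5.66, 6.16, 6.27, 6.44 and 6.76 on the 5 old cancer-free arrays. In young mice it was 6.43, 6.06 and 6.41 on the cancer-free and 5.34, 5.30 and 6.30 on the tumour-bearing arrays. Every old tumour-bearing array was therefore above all 11 others, which was so for 103 of all genes tested (0.746%). Between old tumour-bearing and old cancer-free mice the difference was 1.42 ± 0.29 (log2 ± SE, 2.68-fold; adjusted p = 0.190 in limma, where it ranked 16 of 13805 genes by p). Between old and young tumour-bearing mice it was 2.04 ± 0.32 (4.11-fold). Since Nop16 had been noticed in that comparison before, this value is a description and no p is attached to it. Both differences rest on the same 3 old tumour-bearing arrays. The p and rank for tumour in old mice are therefore not free of that earlier choice. In young mice the difference between tumour-bearing and cancer-free was -0.66 ± 0.32 (adjusted p = 0.886 in limma). The difference between the tumour effects in old and young mice was 2.08 ± 0.43. It contains the comparison of old with young tumour-bearing mice, so no p is attached to it either. In cancer-free mice the old and young levels were 6.26 ± 0.40 (SD, n = 5) and 6.30 ± 0.21 (SD, n = 3).

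Trmt2a and Nat10, both enzymes that modify RNA, had the opposite pattern in old mice. Trmt2a encodes a methyltransferase of uridines in transfer RNA. On the old cancer-free arrays it lay at 6.64, 6.90, 6.97, 7.18 and 7.24, and on the old tumour-bearing arrays at 5.71, 5.40 and 6.03. The young cancer-free arrays had 6.36, 6.25 and 6.09 and the young tumour-bearing arrays 5.62, 6.37 and 5.69. Nat10 encodes the acetyltransferase that makes N4-acetylcytidine in ribosomal and transfer RNA. It lay at 5.51, 5.55, 5.61, 5.65 and 6.08 on the old cancer-free and at 4.83, 4.46 and 4.09 on the old tumour-bearing arrays. Its young cancer-free arrays had 5.38, 4.95 and 4.83 and its young tumour-bearing arrays 5.01, 4.90 and 4.64. For both genes the 5 old cancer-free arrays were above all 9 others, which held for 16 of all genes tested (0.116%). The difference between old tumour-bearing and old cancer-free mice was -1.27 ± 0.21 for Trmt2a (a ratio of 0.414; adjusted p = 0.141 in limma). For Nat10 it was -1.22 ± 0.21 (a ratio of 0.430; adjusted p = 0.141 in limma). The genes ranked 3 and 4 of 13805 by p in that comparison, but neither passed. The list was drawn up with earlier results of these arrays known, so these ranks are not free of that choice. Between old and young cancer-free mice the differences were 0.75 ± 0.21 for Trmt2a (adjusted p = 0.522 in limma) and 0.63 ± 0.21 for Nat10 (adjusted p = 0.581 in limma). As these use the same 5 old cancer-free arrays, they are not separate from the tumour comparison. Among all 37 genes, no overlap between old tumour-bearing and old cancer-free arrays was found for 1 gene higher with tumour, Nop16 (3.11% of all genes), and 2 lower, Trmt2a and Nat10 (3.04%). Between old and young tumour-bearing arrays it was found for 1 gene higher, Nop16 (5.94% of all genes), and 0 lower (7.1%). As Nop16 had been noticed in that comparison before, its place in this count is a description only. In young mice the tumour differences were -0.34 ± 0.24 and -0.20 ± 0.23. The interaction was -0.94 ± 0.32 for Trmt2a and -1.01 ± 0.31 for Nat10, each with adjusted p = 0.976 in limma.

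**Figure D3:**
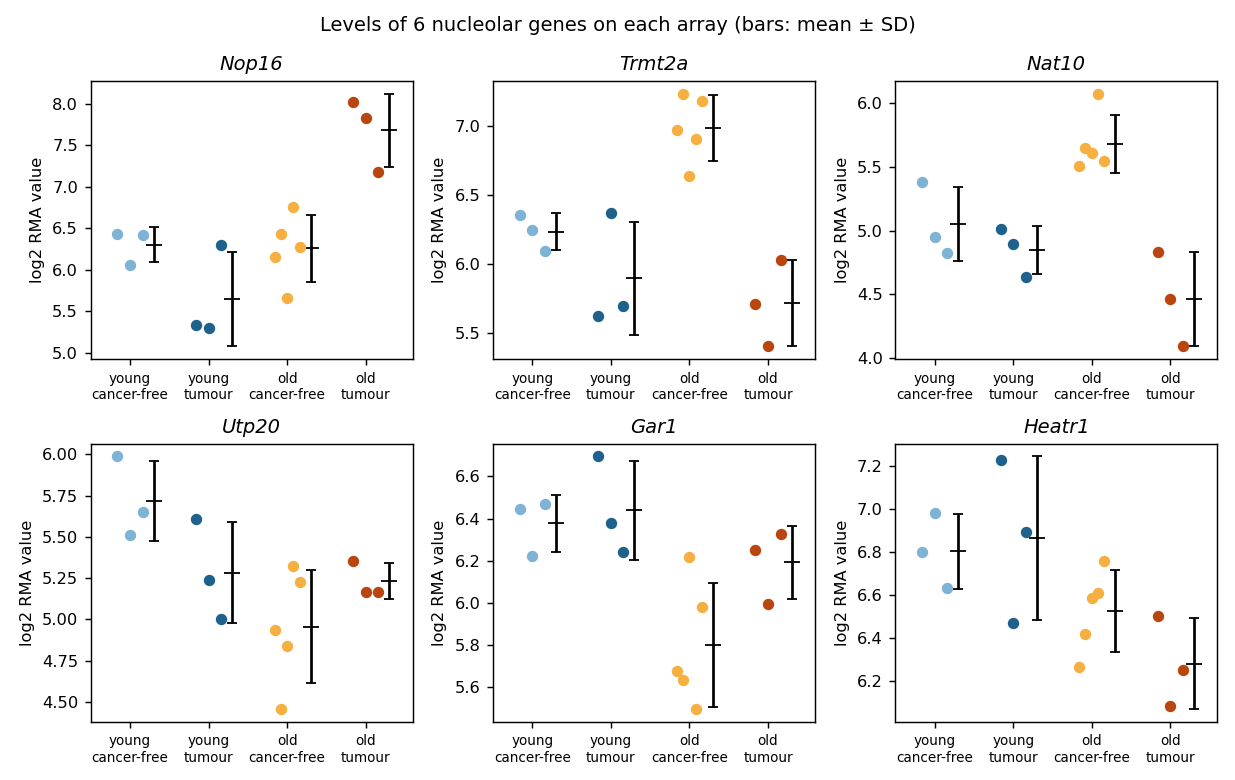
Log2 RMA value of 6 nucleolar genes on each array, by group, with the group mean ± SD (n = 3, 3, 5 and 3). The old tumour-bearing arrays lie at 7.18 to 8.03 for Nop16, above all others, and the old cancer-free arrays lie highest for Trmt2a (6.64 to 7.24) and Nat10 (5.51 to 6.08). For Utp20, Gar1 and Heatr1 the old arrays tend to lie below the young ones, with overlap in at least 1 pair of groups.

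Nop16 and Trmt2a each start head to head with another gene, so the DNA between the starts lies before both genes. In the RefSeq promoter table (GRCm38.p6), 35 of the 40 genes had a window of 250 bases before to 50 bases after the start. Of these, 14 had an oppositely directed start within 500 bases upstream, and the partner was tested for 11. The stretches between the starts of Nop16 and Higd2a and of Ranbp1 and Trmt2a are shown because both members stood apart while their partners can be read on the same arrays, and 200 bases before Nat10, which has no such partner, are shown beside them. They are written 5′ to 3′ on the member's strand, with capitals for the motifs counted further on.
Nop16, minus strand, chr13:54590075-54590230: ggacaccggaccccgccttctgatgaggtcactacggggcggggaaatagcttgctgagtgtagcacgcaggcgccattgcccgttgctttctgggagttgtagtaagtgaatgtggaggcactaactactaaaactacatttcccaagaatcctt
Trmt2a, plus strand, chr16:18248695-18248882: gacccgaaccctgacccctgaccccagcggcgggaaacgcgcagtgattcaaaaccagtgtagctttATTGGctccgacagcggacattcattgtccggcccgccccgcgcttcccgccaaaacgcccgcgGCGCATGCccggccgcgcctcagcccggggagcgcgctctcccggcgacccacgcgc
Nat10, minus strand, chr2:103761271-103761470: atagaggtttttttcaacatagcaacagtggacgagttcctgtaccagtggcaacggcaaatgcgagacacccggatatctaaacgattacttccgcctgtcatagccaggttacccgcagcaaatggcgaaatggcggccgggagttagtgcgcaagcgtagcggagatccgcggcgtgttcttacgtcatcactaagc
Higd2a, a mitochondrial protein of respiratory complex assembly, had a level of 8.31 ± 0.42 (SD, n = 5) in old mice without and 7.69 ± 1.72 (SD, n = 3) with tumour, a difference of -0.61 ± 0.55 where that of Nop16 was 1.42 ± 0.29. Ranbp1, a regulator of the GTPase Ran, had 7.96 ± 0.27 (SD, n = 5) and 7.91 ± 0.44 (SD, n = 3), a difference of -0.042 ± 0.24 where that of Trmt2a was -1.27 ± 0.21. The differences between members and partners were not tested. Noc4l shares its start region with Ddx51, another gene of the pathway. For tumour in young mice the pair was at -0.40 ± 0.50 and -0.44 ± 0.33, and for age in tumour-bearing mice at 0.32 ± 0.50 and 0.52 ± 0.33. Both comparisons use the same 3 young tumour-bearing arrays. The pair was at 0.025 and 0.14 for tumour in old mice and at -0.10 and -0.069 for age in cancer-free mice. Other pairs had opposite signs, such as Polr1a (0.32 ± 0.21) and Ptcd3 (-1.02 ± 0.28) for tumour in old mice. Likeness within pairs was not tested.

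The other members are described by role. Polr1a and Polr1b encode the largest subunits of RNA polymerase I. Polr1a differed by -0.31 to 0.32 across the 4 comparisons of single groups. Polr1b was near the dim floor: it lay at 4.60, 4.52 and 4.06 on the young cancer-free arrays and at 3.16 to 4.23 on all others. Its difference was -0.72 ± 0.26 for tumour in young mice (adjusted p = 0.886 in limma) and -0.62 ± 0.24 for age in cancer-free mice (adjusted p = 0.604 in limma). Of its 6 arrays above the dim floor, 3 were young cancer-free and 3 were from the other groups.

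Among box C/D proteins, Nop58, a core protein, and Rrp9, which binds the U3 RNA, had no difference beyond -0.18 to 0.13 in these 4 comparisons. Nop56, the other core protein of its pair, was at 6.97, 6.93 and 5.91 on the old tumour-bearing arrays and between 6.62 and 8.08 on the old arrays without tumour, a difference of -0.76 ± 0.32 (adjusted p = 0.483 in limma). The groups overlapped, and old tumour-bearing replicate 3 lay lowest. Among box H/ACA proteins, Gar1 was at 5.50, 5.63, 5.68, 5.98 and 6.22 in old cancer-free mice and at 6.44, 6.22 and 6.47 in young cancer-free mice. The difference was -0.58 ± 0.19 (adjusted p = 0.581 in limma), and the highest old array lay just below the lowest young array. Dkc1, the pseudouridine synthase, Nhp2 and Nop10 did not reach an unadjusted p of 0.05 in any comparison. Dkc1 varied widely between arrays of a group: for tumour in young mice it was at 0.22 ± 0.39, with a sign that turned to -0.14 when young tumour-bearing replicate 3 was left out.

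Among small subunit factors, Utp20 and Rrp12 were lowest in old cancer-free mice. Utp20, a large scaffold protein of the processome, was at 5.99, 5.51 and 5.65 in young cancer-free mice and at 4.46, 4.84, 4.94, 5.23 and 5.32 in old ones. The difference was -0.76 ± 0.21 (adjusted p = 0.522 in limma). Rrp12, needed for export of both subunits, lay at 4.98 to 5.50 and at 4.62 to 4.83 in the same groups, a difference of -0.47 ± 0.17 (adjusted p = 0.581 in limma). Neither overlapped between these groups. In cancer-free mice no overlap between the ages was found for 5 members, Trmt2a and Nat10 higher in the old (2.9% of all genes) and Utp20, Gar1 and Rrp12 lower (4.4% of all genes). Heatr1, a processome subunit that also acts in ribosomal RNA transcription, was at 6.50, 6.08 and 6.25 in old and 7.23, 6.47 and 6.89 in young tumour-bearing mice. The difference was -0.58 ± 0.22 (adjusted p = 0.389 in limma). The highest old array lay just above the lowest young array. Wdr43, averaged over ages, was at -0.38 ± 0.15 for tumour (adjusted p = 0.411 in limma), and Utp15, averaged over hosts, at 0.53 ± 0.24 for age (adjusted p = 0.349 in limma). Utp18, Nop14, Bms1 and Noc4l did not reach an unadjusted p of 0.05 in any comparison. A second Bms1 probe, with a mean level of 6.76 against 7.04, differed from the one used. It gave -0.47 ± 0.26 for tumour in young mice, where the probe used gave -0.016 ± 0.33. For age in cancer-free mice it gave -0.42 ± 0.23 against -0.0059 ± 0.29.

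Among large subunit factors other than Nop16, Rrs1, which helps to place the 5S RNA particle, was at 4.74, 4.91 and 5.96 in old tumour-bearing and between 5.40 and 6.45 in old mice without tumour, the difference being -0.77 ± 0.30 (adjusted p = 0.461 in limma). A second Rrs1 probe gave -0.38 ± 0.24. Against young tumour-bearing mice, at 5.83, 6.07 and 5.98, the difference was -0.76 ± 0.34 (adjusted p = 0.470 in limma). In both comparisons the third old tumour-bearing array lay within the range of the other group. Pes1, Bop1 and Wdr12 form the PeBoW complex of large subunit processing. They lay at 0.47, 0.26 and 0.086 for tumour in young mice and at 0.18, 0.12 and 0.094 in old mice, and none reached an unadjusted p of 0.05. Ebna1bp2, Brix1, Rrp1b, Noc2l, Noc3l and Gnl3, the gene of nucleostemin, did not reach it either. For Ebna1bp2 the young tumour-bearing arrays (4.91, 5.96 and 6.14) and the young cancer-free arrays (6.15 to 6.30) did not overlap. This was so for 3 members in that comparison, all lower with tumour (7.37% of all genes), the others being Nop2 and Npm1, and for 0 higher (5.56%).

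Ncl and Npm1, the genes of the abundant nucleolar proteins nucleolin and nucleophosmin, varied little on the probes used. Ncl lay between 9.61 and 10.31 on all arrays, and its 95% intervals in the 4 comparisons of single groups lay between -0.69 and 0.56. Npm1 lay between 10.53 and 11.39, with intervals between -0.74 and 0.59. A second, dimmer Npm1 probe, with a mean level of 5.87, gave -0.50 ± 0.17 for tumour in young mice, where the probe used gave -0.34 ± 0.19. For age in tumour-bearing mice it gave 0.43 ± 0.17 against 0.20 ± 0.19. The tumour average was -0.37 ± 0.11 against -0.23 ± 0.12, and the age average 0.30 ± 0.11 against 0.090 ± 0.12. The second probe had an unadjusted p under 0.05 in limma in each of these, the probe used in none. Nolc1, a chaperone of snoRNPs, was at 7.35, 6.93 and 7.84 in old tumour-bearing and between 6.48 and 7.11 in old mice without tumour, the difference being 0.54 ± 0.23 with overlap (adjusted p = 0.474 in limma). Nop2, a cytosine methyltransferase of ribosomal RNA, lay at -0.37 for tumour in young and at -0.57 in old mice. The helicase Ddx21 and Mybbp1a, a nucleolar regulator of transcription, did not reach an unadjusted p of 0.05.

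**Figure D4:**
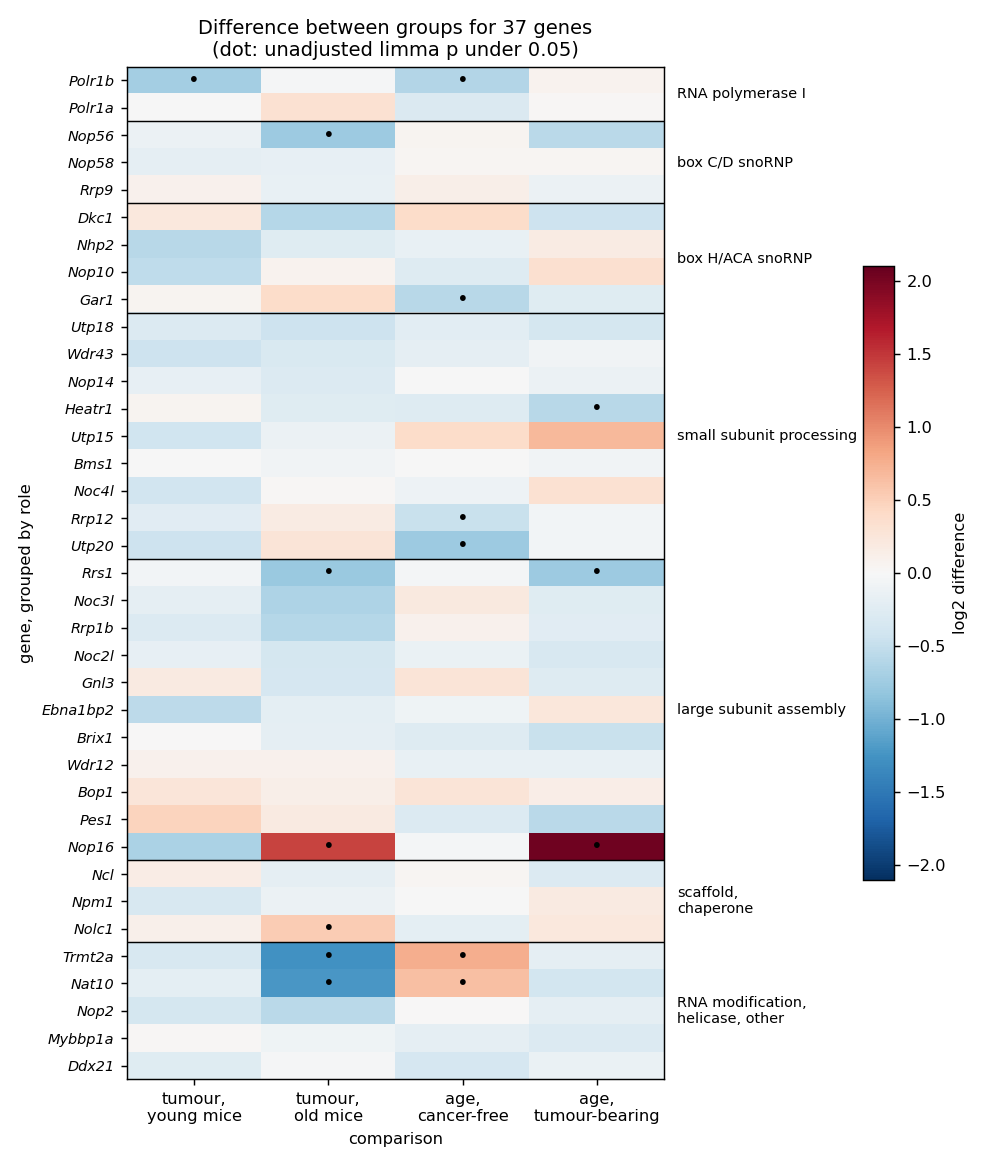
Log2 difference of each of the 37 nucleolar genes in 4 comparisons, grouped by role, on a colour scale from blue (lower) to red (higher). Dots mark unadjusted limma p under 0.05. They mark 1, 6, 6 and 3 genes from left to right, and the strongest colours are those of Nop16 (1.42 and 2.04), Trmt2a (-1.27) and Nat10 (-1.22).

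The E-box CACGTG, the sequence that Myc and related factors bind, was searched on both strands of the promoter windows. It was found in 7 of 39 windows of the list (17.9%) and in 7.15% of all 32851 windows. The 7 genes were Mybbp1a, Nop2, Pes1, Tsr1, Utp18, Utp20 and Wdr43, and none of the 3 genes that stood apart was among them. The stretches around it in 4 of the 7 genes, given as examples, are printed with the E-box in capitals, all in GRCm38.p6. The differences of Nop2, Utp20 and Wdr43 are given with their roles, and Utp18 lay at -0.28 ± 0.33 for tumour in young mice and -0.43 ± 0.30 in old mice. Of the genes not printed, Pes1 was higher with tumour, at 0.47 ± 0.30 in young and 0.18 ± 0.27 in old mice. Mybbp1a was at 0.021 ± 0.25 and -0.084 ± 0.22, and Tsr1 was not analysed.
Nop2, plus strand, chr6:125131811-125131840: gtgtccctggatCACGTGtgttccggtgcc
Utp18, minus strand, chr11:93885769-93885798: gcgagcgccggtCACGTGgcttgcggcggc
Utp20, minus strand, chr10:88826765-88826789: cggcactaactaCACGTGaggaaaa
Wdr43, plus strand, chr17:71616220-71616249: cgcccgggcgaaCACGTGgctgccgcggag
Of the other motifs counted, also on both strands, CCGGAAG, of the ETS family, was in 33.3% of the list's windows and 8.86% of all, GCATGCGC, of NRF1, in 2.56% and 2.71%, CCAAT in 28.2% and 37.4%, and TATAAA in 5.13% and 13.6%. Trmt2a held both CCAAT and GCATGCGC. The motifs in capitals do not overlap. A match describes the letters only.

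The rest of the pathway was read from 107 further ribosome biogenesis genes, of which 103 were tested. Limma called 0 of them in any comparison. At unadjusted p under 0.05 tumour gave 0 higher and 5 lower in the young (median difference -0.16) and 3 and 6 in the old (median -0.12). These were 4.85% of the 103 in the young (5.4% of all genes) and 8.74% in the old (9.76%). Over all genes the shares higher and lower were 2.1% and 3.3% in the young and 4.2% and 5.56% in the old. Age gave 0 and 5 without tumour (median -0.10) and 5 and 6 with tumour (median -5.73e-05). For age the shares of the 103 were 4.85% without tumour (7.66% of all genes) and 10.7% with tumour (10.1%). Over all genes those higher and lower were 2.48% and 5.17% without tumour and 3.75% and 6.35% with tumour. With the smallest p for tumour in old mice, none passing, were Gtpbp4 (-0.66 ± 0.17), a GTPase of large subunit assembly, and Tex10 (-1.15 ± 0.31), with Urb2 at 0.65 ± 0.22. Urb2 was at -0.72 ± 0.24 for tumour in young mice and -0.99 ± 0.22 for age without tumour. Between old and young tumour-bearing mice the leading genes were Emg1 (-0.85 ± 0.23), a methyltransferase of small subunit RNA, Rrn3 (0.86 ± 0.24), an initiation factor of RNA polymerase I, and Aatf (0.73 ± 0.22). Myc itself had group means of 7.87 without and 7.77 with tumour in young mice and of 7.86 without and 8.27 with tumour in old mice. Its difference was 0.41 ± 0.27 for tumour in old mice (adjusted p = 0.650 in limma) and 0.50 ± 0.31 for age in tumour-bearing mice (adjusted p = 0.611 in limma). Mycn stayed below the dim floor on all arrays.

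Cell cycle and cell type markers moved between the same groups. The mean of 19 of 20 cell cycle genes lay in young mice at 6.81 to 7.11 without and 6.67 to 7.20 with tumour, and in old mice at 5.33 to 6.54 without and 5.26 to 6.36 with tumour, so that all old arrays were below all young ones. All 19 had a lower mean in old than in young mice, in both cancer-free and tumour-bearing hosts, and Mki67 was at -1.53 ± 0.29 (adjusted p = 0.0601 in limma) for age on average. Over the same arrays the nucleolar genes differed by a median of -0.077, which was -0.12 without young cancer-free replicate 3, -0.14 without young tumour-bearing replicate 3 and -0.13 without old tumour-bearing replicate 3. Of natural killer cell markers, 8 of 9 were lower in old tumour-bearing than in old cancer-free mice. Their list means were 7.77 to 8.19 against 8.21 to 8.85, so without overlap. In young mice 8 of 9 were also lower with tumour, at 8.19 to 8.76 against 8.78 to 9.10, again without overlap. Nop16, Trmt2a and Nat10 lacked overlap in the old but overlapped in the young, and whether they follow these markers was not tested. All 7 plasma cell markers had a higher mean in old tumour-bearing than in old cancer-free mice, at 9.67 to 9.99 against 9.13 to 9.71. List means overlapped between these groups for T cells (7.40 to 7.82 against 6.97 to 8.13, 11 of 13 genes tested), the B lineage (6.97 to 7.21 against 6.42 to 7.37, 8 of 11), neutrophils (5.77 to 6.50 against 5.46 to 7.57, 12 of 12), and monocytes and macrophages (6.08 to 6.66 against 6.09 to 7.01, 10 of 10). They also overlapped for plasmacytoid dendritic cells (6.01 to 6.71 against 5.87 to 7.30, 11 of 12), stem and progenitor cells (4.52 to 4.96 against 4.50 to 5.07, 6 of 9), erythroid cells (4.12 to 4.26 against 3.93 to 4.21, 4 of 8) and stromal and endothelial cells (4.03 to 4.40 against 3.94 to 4.19, 6 of 10). The erythroid factor Klf1 was at 3.82 on average, below the dim floor, and 4 stromal and endothelial markers did not pass it. The part of these cell types in the nucleolar gene levels was not tested.

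The counts at unadjusted p under 0.05 depended on single arrays. For tumour in young mice the 1 gene became 5 when young tumour-bearing replicate 2 was left out. It became 3 with old cancer-free replicate 3 left out, and 2 with young tumour-bearing replicate 1 or 3 or old tumour-bearing replicate 3 left out. For age in tumour-bearing mice the 3 became 5 without young tumour-bearing replicate 2 and 1 without young tumour-bearing replicate 1. These counts are not set beside the share over all genes in the same runs. They are therefore not read as a change of the nucleolar genes. For the 3 genes that stood apart, leaving out each array in turn gave differences for tumour in old mice of 1.25 to 1.67 (Nop16), -1.43 to -1.12 (Trmt2a) and -1.40 to -1.03 (Nat10). The genes were picked for groups that did not overlap, so leaving out 1 array could not turn the sign. These ranges are a description only.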

How the data were processed

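Total RNA (500 pg a sample) was amplified with a whole-transcriptome system and hybridised to 1-colour arrays, per the labels' protocols. The authors deposited RMA values in log2 units. The submitters' processing notes name oligo 1.32.0 and R 3.2.0. The table itself states no scale, and log2 was read from its range of 0.29 to 13.78.

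Of 41345 probes, 23521 carried 1 gene symbol, 1814 several and 16010 none. Symbols were updated by Entrez identifier where possible (23328 probes). The brightest probe stood for a gene. Genes above 3.88 on at least 3 arrays were fitted with limma 3.58.1 under R 4.3.3, 4 group means in 1 fit (residual degrees of freedom 10, prior 3.86), two-sided, Benjamini-Hochberg adjusted within each of 7 contrasts. Scripts were tested on simulated data.

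Members, gene lists and motifs were chosen with earlier results of these data known. Members at unadjusted p under 0.05 or among the 3 highest or lowest differences of a contrast were named with statistics, and of the other pathway genes the 3 with the smallest p. Alternatives were the dim filter, scaling, variance model, array weights, probe averaging, fewer groups, a replicate block and leaving out arrays. The labels call the samples biological replicates.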

Additional observations from a re-analysis of the deposited data

Results flagged for a closer look

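In the only group large enough to be examined for a far array, the 5 old cancer-free mice, 5 of 37 nucleolar genes had 1 array whose gap to its nearest neighbour was a large part of the range (Dixon's criterion at 95%, critical value 0.710). By chance about 1 in 20 groups is marked this way. Old cancer-free replicate 2 was lowest for Nop58 (7.38, the next at 8.19) and for Nop2 (4.74, the next at 5.91). Old cancer-free replicate 4 was highest for Nat10 (6.08, the next at 5.65) and lowest for Utp18 (5.10, the next at 5.91). Old cancer-free replicate 3 was lowest for Wdr43 (7.85, the next at 8.29).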

How the results depend on the processing

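Leaving Nop16 aside, the number of nucleolar genes called stayed at 0 in every alternative run. With Nop16 the count was 1 for age in tumour-bearing mice with cyclic loess, median centring or the mean of a gene's probes, and 0 to 1 for age on average without single arrays (1 without old tumour-bearing replicate 3). Nop16 had been noticed in that comparison beforehand, so these counts are a description and support nothing. At unadjusted p under 0.05 for tumour in young mice, there were 2 nucleolar genes with array weights, averaged probes or the replicate block. The count was also 2 under a variance trend with a robust prior. Without the 2 least correlated arrays, an alternative added after seeing the data, it was 2 as well. It was 0 with the stricter dim filter (above 4.40 on at least 3 arrays), which left out Polr1b, the 1 gene at that p in the main fit. Leaving out single arrays gave 1 to 5. For age in tumour-bearing mice it was 1 with only the groups compared, and 1 to 5 without single arrays. For the tumour average it was 6 with array weights, 5 with cyclic loess, the variance trend or without the 2 least correlated arrays, and 3 to 8 without single arrays (7 without young tumour-bearing replicate 2 or old cancer-free replicate 2, 5 without old tumour-bearing replicate 1, 8 without old tumour-bearing replicate 3). For the age average it was 3 without the 2 least correlated arrays, and 4 to 8 without single arrays (8 without young tumour-bearing replicate 2). The share over all genes in each of these runs is not given, so nothing is read from these counts about the nucleolar genes. The median difference over the nucleolar genes moved with cyclic loess to -0.078 (tumour in young mice) and 0.0022 (age in cancer-free mice), and for the difference of tumour effects to 0.032 with the replicate block and to between -0.18 and 0.025 without single arrays (0.025 without old tumour-bearing replicate 2). Without single arrays the median ranged from -0.26 to -0.13 for tumour in young mice, -0.23 to -0.11 in old mice, -0.091 to -0.050 for age in cancer-free mice and -0.19 to -0.058 in tumour-bearing mice. The cause was not tested. Dkc1 for tumour in young mice lay between -0.14 and 0.49 without single arrays, changing sign without young tumour-bearing replicate 3. The 46 named gene differences otherwise kept their sign. They were named for a small p or an extreme difference, so this is a description only. Equal replicate numbers did not pair the samples: deviations of same-numbered arrays correlated at -0.076 to 0.089. The replicate block changed no call of a nucleolar gene. At unadjusted p under 0.05, scaling moved the split for the tumour average from 0 higher and 3 lower to 2 and 3 with cyclic loess, for age in tumour-bearing mice from 1 and 2 to 2 and 1, and for the age average from 2 and 3 to 1 and 5 with median centring. Of all genes at that p, the share that was higher moved from 32.5% to 45.4% (loess) and 15.5% (centring) for age in cancer-free mice, from 37.2% to 24.8% (centring) in tumour-bearing mice, and from 33.1% to 15.7% (centring) on average.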
